A study of Xenopus tropicalis x Xenopus laevis and Xenopus laevis and Xenopus tropicalis with 8 samples.

Results

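Expression from the sperm genome was compared between the 2 reciprocal hybrids of *Xenopus laevis* and *Xenopus tropicalis*, symbol by symbol. In le × ts hybrids the egg is from *X. laevis* and the sperm from *X. tropicalis*, and expression from the sperm genome was read from *X. tropicalis* transcripts. In te × ls hybrids the egg is from *X. tropicalis* and the sperm from *X. laevis*, and it was read from *X. laevis* transcripts. The values of all transcripts that share a symbol were summed within a species, and the mean of the 2 pure embryo libraries of the egg species was subtracted to give a net value. The comparison covered the 10151 symbols with transcripts of both species, out of 13313 symbols in all. The unit TPM scales the transcripts of a library to a fixed total. A symbol was taken as expressed from the sperm genome where its net value was at least 1 TPM in both hybrid libraries and both hybrid libraries lay above both pure libraries.

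Polyadenylated RNA of whole embryos at stage 9, 9 h post-fertilization, was sequenced in 4 groups of 2 libraries, numbered 1 and 3. Embryos of *X. laevis*, le × ts hybrids, te × ls hybrids and embryos of *X. tropicalis* made up the groups, with no other treatment or genetic change in the labels. How many embryos went into a library is not given in the sources used here, and nothing says that the libraries of a group came from separate clutches, so every p-value measures the spread between these samples only. Each cross has its own egg species, its own sperm species and its own set of reference transcripts, and these cannot be told apart in a comparison of the crosses.

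As background, the early frog embryo divides on RNA and protein stored in the egg, and its own genome is switched on around the mid-blastula stage. In a hybrid, transcripts of the sperm species can only have been made in the embryo or carried in by the sperm, whereas transcripts of the egg species can also be stored maternal RNA. The le × ts hybrid is viable, and the te × ls hybrid is known to die as a late blastula. *X. laevis* is an allotetraploid with homeologous L and S copies of many genes, and *X. tropicalis* is diploid, so that a symbol usually stands for more transcripts in *X. laevis* (median 2) than in *X. tropicalis* (median 1). A symbol shared by both species is taken from the file and is not proof of orthology.

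TPM do not keep the number of reads, which was estimated from the smallest steps in the values. Relative to *X. laevis* replicate 1, the estimate was 0.973 for le × ts replicate 1 and 0.439 for replicate 3. Relative to *X. tropicalis* replicate 1, it was 1.52 and 1.12 for te × ls replicates 1 and 3 and 0.323 for *X. tropicalis* replicate 3. Genes of the early embryo were abundant in the pure embryos, where 20 to 22 listed pluripotency and early transcription factors summed to between 6759 and 8142 TPM. Sperm and testis markers were near 0 among sperm-species transcripts, with sums of 1.87 and 0 TPM in le × ts and 0.358 and 0.248 TPM in te × ls. None of the 15 shared markers passed the rule in either cross, against 1.32% and 2.98% of all symbols in le × ts and te × ls. So few markers could not show a lower share. Markers of blood, muscle and liver summed to 0.149 and 0.804 TPM in te × ls. In le × ts the *X. tropicalis* sum for these tissues was 108 and 755 TPM against 108 and 103 TPM in *X. laevis* embryos, so that le × ts replicate 3 stood apart, with 754 TPM from the cardiac troponin gene *tnnt2*.

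With both libraries of each cross, more symbols were expressed from the sperm genome in te × ls than in le × ts. In le × ts, 134 of the 10151 symbols (1.32%) passed, and in te × ls 302 symbols (2.98%) passed. With the hybrid and pure groups exchanged, 5 symbols (0.0493%) passed in each cross. The lists shared 87 symbols (0.857% of all), which is 64.9% of the le × ts list and 28.8% of the te × ls list. Another 36 symbols (0.355%) passed in le × ts and stayed under 1 net TPM in both te × ls libraries, and 126 symbols (1.24%) passed in te × ls and stayed under 1 net TPM in both le × ts libraries. The remainder lay between, with 11 symbols that passed in le × ts and reached 1 net TPM in 1 te × ls library or overlapped the pure embryos, and 89 for which the same held the other way round.

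The counts rest on both le × ts libraries. Of the 89 symbols that passed in te × ls and lay between in le × ts, 82 reached 1 net TPM in le × ts replicate 1 and 8 did so in replicate 3, the library with fewer reads. Leaving out a library of a cross leaves a laxer rule for that cross, with 1 net TPM asked of its other library alone. Without le × ts replicate 3, 329 symbols passed in le × ts under this laxer rule, against 302 in te × ls under the rule of both libraries. The te × ls list in turn held up to 421 symbols with 1 library left out, so no order of the crosses is read from these unlike counts. There were then 169 that passed in both crosses (56.0% of the te × ls list), 124 in le × ts alone and 133 in te × ls alone. Without le × ts replicate 1 the le × ts list held 231 symbols, with 117 in le × ts alone and 207 in te × ls alone, and without te × ls replicate 1 there were 216 in te × ls alone. The part of read depth in these counts was not tested. Near the threshold, the lower net value of *cited4* was 1.0 TPM and that of *cyp26a1* was 0.991 TPM in le × ts, and that of *anp32c* was 1.0 and of *pfkfb3* 0.999 TPM in te × ls.

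**Figure D1:**
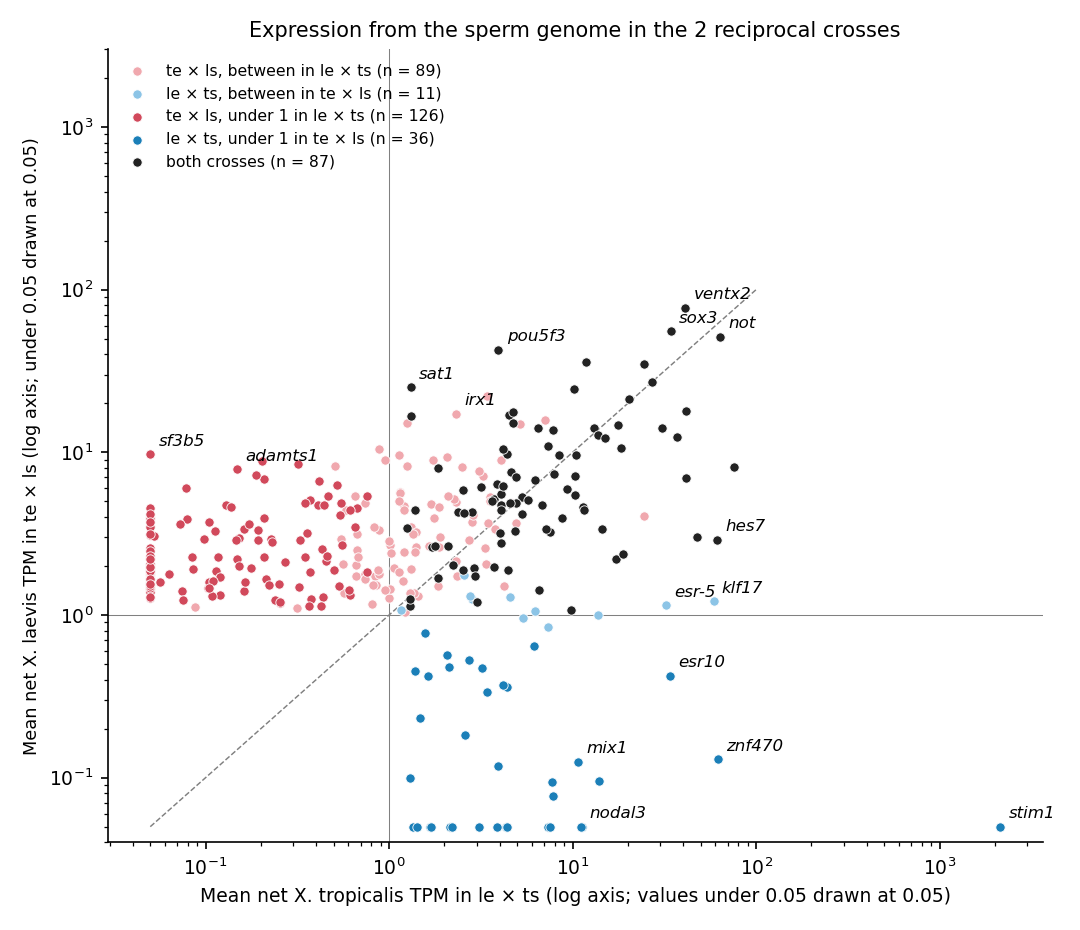
Mean net TPM of each symbol from the sperm genome, X. tropicalis transcripts in le × ts on the horizontal axis and X. laevis transcripts in te × ls on the vertical axis, both logarithmic, with values under 0.05 drawn at 0.05; each point is a symbol that passed in at least 1 cross, the solid lines mark 1 TPM and the dashed line marks equal values. The 87 symbols of both crosses lie along the diagonal with a wide scatter, *hes7* and *klf17* lie far to its right and *pou5f3* and *sat1* far above it.

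Among the 87 symbols expressed from the sperm genome in both crosses, the homeobox gene *not*, which acts in the organizer and the notochord, stood first. Its net value was 83.4 and 44.1 TPM in le × ts replicates 1 and 3, and 35.0 and 67.9 TPM in te × ls replicates 1 and 3, so that the crosses overlapped. It was listed at 0.146 and 0.128 TPM of *X. tropicalis* transcript in *X. laevis* embryos and at 0.360 and 0 TPM of *X. laevis* transcript in *X. tropicalis* embryos. The ventral homeobox repressor *ventx2* followed with 57.4 and 24.7 TPM in le × ts and 61.9 and 93.0 TPM in te × ls, where both te × ls libraries were higher than both le × ts libraries. The SoxB1 factor *sox3*, which marks ectodermal precursors, was at 43.2 and 25.4 TPM in le × ts and at 38.8 and 71.8 TPM in te × ls, again with overlap.

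Genes for signalling and chromatin followed among the 12 highest of the 87. The chemokine receptor gene *cxcr4* was at 33.1 and 21.0 TPM in le × ts and at 23.1 and 31.0 TPM in te × ls. The TGF-beta ligand gene *gdf3* was at 35.6 and 5.17 TPM in le × ts and at 15.6 and 26.9 TPM in te × ls. The Nodal co-receptor gene *tdgf1* was at 41.5 and 19.99 TPM in le × ts and at 15.7 and 12.4 TPM in te × ls. All values of *tdgf1* in le × ts were above those in te × ls, while the values of *cxcr4* and *gdf3* overlapped. The ectodermal forkhead factor *foxi4* was at 52.6 and 21.8 TPM in le × ts and at 7.48 and 17.2 TPM in te × ls, without overlap. The HLH inhibitor *id3* was at 65.8 and 17.6 TPM against 6.71 and 28.9 TPM, with overlap. The splicing factor genes *srsf5* and *srsf7*, the chromatin gene *hmgb2* and the nuclear receptor coactivator gene *pnrc2* completed the group, with mean net values of 24.4, 17.6, 13.0 and 13.8 TPM in le × ts and of 35.1, 14.7, 14.0 and 12.8 TPM in te × ls. In *pnrc2* the le × ts libraries were far apart, at 26.5 and 1.16 TPM.

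None of these 12 symbols passed the direct test of a difference between the crosses. This test used limma on log2(TPM + 1), comparing the change of the sperm-species value over pure embryos in le × ts with that in te × ls, with Benjamini-Hochberg adjustment over 714 symbols. The log2 difference, le × ts minus te × ls, ran from -1.79 ± 0.69 (SE) for *srsf5* (adjusted p = 0.139, limma, n = 2 per group) to 1.49 ± 0.71 for *foxi4* (adjusted p = 0.25, limma). On this scale the difference understates changes of low values, and it can order the crosses otherwise than the net values do, as for *tdgf1* (-0.04 ± 0.55).

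**Figure D2:**
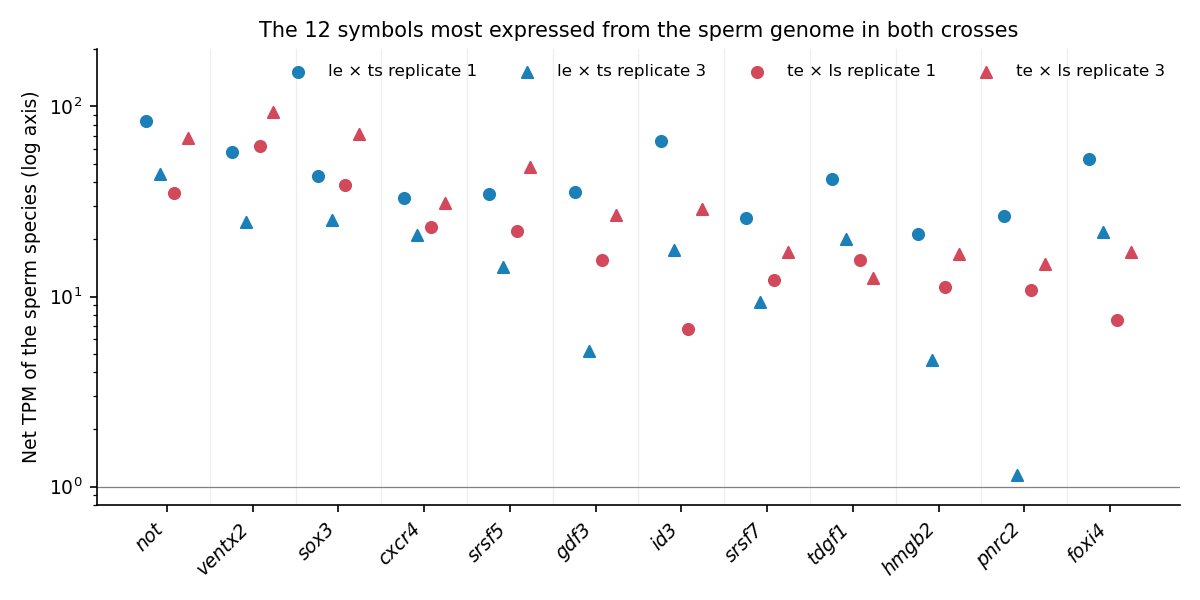
Net TPM of the sperm species in each hybrid library (logarithmic axis) for the 12 symbols with the highest lower mean of the 2 crosses; circles are replicate 1 and triangles replicate 3, blue le × ts and red te × ls. For all 12 symbols le × ts replicate 1 lies above replicate 3, and for 11 of them te × ls replicate 3 lies above replicate 1.

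The 2 libraries of a cross differed in the same way for most of the 87 symbols. In le × ts 79 of them were higher in replicate 1, and in te × ls 67 were higher in replicate 3. The same symbols were higher in replicate 3 than in replicate 1 for 65 of 87 in *X. tropicalis* embryos and for 34 of 87 in *X. laevis* embryos. Summed over the 87, the net value was 1485 and 526 TPM in le × ts replicates 1 and 3, and 715 and 1062 TPM in te × ls, so that the crosses overlapped. All le × ts values were above all te × ls values for 17 of the 87 and the reverse held for 21, against 16.3% and 28.8% of all 10151 symbols. Across the 87 symbols the log2 mean net values of the crosses had a Pearson r of 0.446, a description across genes that share the same libraries.

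Of 20 listed pluripotency and early transcription factor symbols with transcripts of both species, 7 passed in le × ts and 15 in te × ls, against 1.32% and 2.98% of all symbols. The list holds 7 symbols that passed in te × ls and lay between in le × ts, against 89 of all 10151 symbols. Another 6 passed in both crosses, against 0.857% of all (*pou5f3*, *sox2*, *sox3*, *myc*, *foxd4l1* and *gmnn*). The direct test called 1 of the 20 higher in le × ts and 6 higher in te × ls, against 2.38% and 15.7% of all 714 symbols tested. The 6 were *pou5f3*, *myc*, *klf5*, *zic2*, *irx2* and *irx3*. Of them *klf5*, *zic2*, *irx2* and *irx3* entered the test only through te × ls, where they are high. The 20 are listed symbols and the 714 are tested ones, so nothing is read from these counts. The pluripotency POU factor *pou5f3* was at 4.80 and 3.07 TPM in le × ts and at 35.4 and 49.9 TPM in te × ls. The te × ls libraries were higher by 2.33 ± 0.44 on the log2 scale, an adjusted p of 0.0125 by limma. Under this symbol the pure embryos also differed, with 1712 and 1612 TPM of *X. laevis* transcript in *X. laevis* but 11.2 and 26.0 TPM of *X. tropicalis* transcript in *X. tropicalis*. The symbol covers 8 *X. laevis* transcripts and 1 *X. tropicalis* transcript, and the POU factor *oct25*, a symbol with *X. tropicalis* transcripts alone, was at 38.4 and 22.5 net TPM in le × ts. A difference between crosses cannot be told apart here from a difference in which copies carry the symbol.

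The zic and irx factors of the neural plate were among the symbols that differed by library. The zinc finger factor *zic1* was at 9.30 and 0.972 TPM in le × ts and at 13.5 and 16.4 TPM in te × ls. The homeobox factor *irx1* was at 4.21 and 0.443 TPM in le × ts and at 15.8 and 18.8 TPM in te × ls. In both the te × ls libraries were higher than both le × ts libraries, and le × ts replicate 3 lay under 1 net TPM. Their differences did not pass (adjusted p = 0.314 and 0.0994, limma), whereas those of *zic2* (-2.58 ± 0.57, adjusted p = 0.0195), *irx2* (-1.80 ± 0.44, adjusted p = 0.0287) and *irx3* (-1.60 ± 0.41, adjusted p = 0.0362) did by limma. However, *zic2*, *irx2* and *irx3* entered the test only through te × ls, where they are high, so their p-values add nothing to that choice. The call in the other direction was *klf17*, a Krüppel-like factor. It was at 83.6 and 33.5 TPM in le × ts and at 0.996 and 1.45 TPM in te × ls, far from overlapping (4.51 ± 0.60, adjusted p = 0.00588, limma).

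Organizer genes were expressed from the sperm genome in both crosses for 5 of 14 symbols, against 0.857% of all, namely *not*, *sia2*, *admp*, *nog* and *dkk1*. The dorsal homeobox activator *sia2* was at 16.1 and 20.7 TPM in le × ts and at 11.4 and 9.81 TPM in te × ls, without overlap. The BMP antagonist gene *nog* was at 5.28 and 3.05 TPM in le × ts and at 5.11 and 7.29 TPM in te × ls, and the BMP-type ligand gene *admp* at 9.48 and 3.46 TPM against 13.4 and 14.6 TPM. The homeobox repressor gene *gsc* passed in te × ls at 3.71 and 6.06 TPM and was at 1.49 and 0 TPM in le × ts. The organizer ligand gene *nodal3* passed in le × ts, at 14.7 and 7.56 TPM, and was listed at 0 in both te × ls libraries. Of the 14, the direct test called 1 higher in le × ts, *nodal3* (3.53 ± 0.44, adjusted p = 0.00588, limma), against 2.38% of all 714 symbols tested. It called 1 higher in te × ls, *hhex* (-1.45 ± 0.26, adjusted p = 0.0113, limma), against 15.7% of all tested. Nothing is read from single calls. Each of these genes entered the test only through the cross where it is high, so the p-values add nothing to that choice.

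Ventral and BMP pathway genes passed in both crosses for 4 of 16 symbols, against 0.857% of all (*ventx2*, *ventx3*, *gdf3* and the BMP pseudoreceptor gene *bambi*). The ligand gene *bmp4* passed in te × ls, at 8.32 and 10.4 TPM, and was at 4.19 and -0.0395 TPM in le × ts. The ligand gene *bmp7* passed in le × ts at 13.1 and 2.38 TPM and was at 0.187 and 0 TPM in te × ls. The difference of *bmp7* was 2.51 ± 0.83 (adjusted p = 0.0879, limma) and did not pass.

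Mesoderm and endoderm genes passed in both crosses for 5 of 28 symbols, against 0.857% of all, which were *sox17b*, *foxh1*, *nodal6*, *tdgf1* and *snai1*. Another 2 passed in le × ts and stayed under 1 net TPM in te × ls, the homeobox factor *mix1* and the ligand *wnt8a*, against 0.355% of all symbols. In te × ls 13 of the 28 passed, against 2.98% of all symbols. The endoderm factor *sox17b* was at 5.60 and 3.84 TPM in le × ts and at 10.2 and 25.3 TPM in te × ls. The Nodal ligand gene *nodal6* was at 12.3 and 5.19 TPM in le × ts and at 4.16 and 3.71 TPM in te × ls, and neither *sox17b* nor *nodal6* overlapped between crosses. The T-box gene *eomes* was at 3.24 and 0.143 TPM in le × ts and at 3.36 and 6.23 TPM in te × ls. Ectoderm genes passed in both crosses for 2 of 14 symbols, against 0.857% of all, *foxi4* and the homeobox gene *dlx5*. In each cross 6 of the 14 passed, against 1.32% of all symbols in le × ts and 2.98% in te × ls.

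Of the 11 hes and id symbols, 10 were expressed from the sperm genome in at least 1 cross and 1 in neither, against 9802 in neither of all 10151. There were 5 that passed in both crosses, against 0.857% of all symbols (*hes2*, *hes3*, *hes4*, *hes7* and *id3*). The bHLH repressor gene *hes7* was at 75.5 and 46.5 TPM in le × ts and at 3.45 and 2.36 TPM in te × ls, without overlap. The related genes *esr-5* (34.0 and 30.6 TPM in le × ts, 0.977 and 1.33 TPM in te × ls) and *esr10* (44.5 and 23.6 TPM in le × ts, 0 and 0.847 TPM in te × ls) showed the same order of the libraries. These 3 genes with *klf17* and *nodal3* had the lowest adjusted p-values in favour of le × ts, with log2 differences of 3.92 ± 0.55 for *hes7*, 3.95 ± 0.34 for *esr-5* and 4.38 ± 0.60 for *esr10* (adjusted p = 0.00588, 0.00578 and 0.00588, limma). Of them *esr-5*, *esr10* and *nodal3* entered the test through le × ts, where they are high. In the other direction, *hes1* was at 7.75 and 13.3 TPM in te × ls and at 1.15 and 0.619 TPM in le × ts (-2.58 ± 0.43, adjusted p = 0.00967, limma). Likewise, *hes1* entered the test only through te × ls, where it is high. The HLH inhibitor gene *id2* was at 8.19 and 8.68 TPM in te × ls and at 0.611 and 0.0235 TPM in le × ts (-2.36 ± 0.43, adjusted p = 0.0113, limma), so that *id2* and *id3* did not share a pattern.

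Splicing factors of the SR and hnRNP families passed in both crosses for 5 of 18 symbols, against 0.857% of all (*srsf2*, *srsf5*, *srsf7*, *hnrnpa1* and *hnrnpa2b1*). The direct test called 1 of the 18 higher in te × ls, against 15.7% of all 714 symbols tested, and nothing is read from 1 call. This was *srsf9*, at 5.58 and 5.21 TPM in te × ls and at 0.922 and 0.0125 TPM in le × ts (-2.31 ± 0.43, adjusted p = 0.0119, limma). It entered the test only through te × ls, where it is high, so its p-value adds nothing to that choice. Housekeeping genes passed in both crosses for 5 of 20 symbols, against the same share. The elongation factor gene *eef1a1* was at 18.7 and 4.89 TPM in le × ts and at 31.6 and 40.3 TPM in te × ls, and *eef1a1o*, the symbol of the oocyte form, was at 71.4 and 12.02 TPM in le × ts and at 4.85 and 9.07 TPM in te × ls. The 2 genes are close copies, and reads that fit both are dropped under the mapping the authors describe, so these values are uncertain.

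Maternal cell cycle and germ plasm genes were the list with the fewest passes among those of the embryo. None of 36 symbols passed in both crosses, against 0.857% of all symbols, and 32 passed in neither, against 9802 of all 10151. In le × ts 1 of the 36 passed and in te × ls 3, against 1.32% and 2.98% of all symbols. A list of this size cannot show a share below these, and none is read from it. The cyclin gene *ccnb3* passed in le × ts at 1.37 and 1.22 TPM, and *ccna2*, *plk1* and *plin2* passed in te × ls, of which the lipid droplet gene *plin2*, at 6.73 and 5.79 TPM, was the highest. Their egg-species transcripts were abundant, and the list summed to between 18580 and 25307 TPM in the pure embryos. None of the 15 sperm and testis markers and none of the 6 blood, muscle and liver markers passed in either cross, numbers too small to set against the shares of all symbols.

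**Figure D3:**
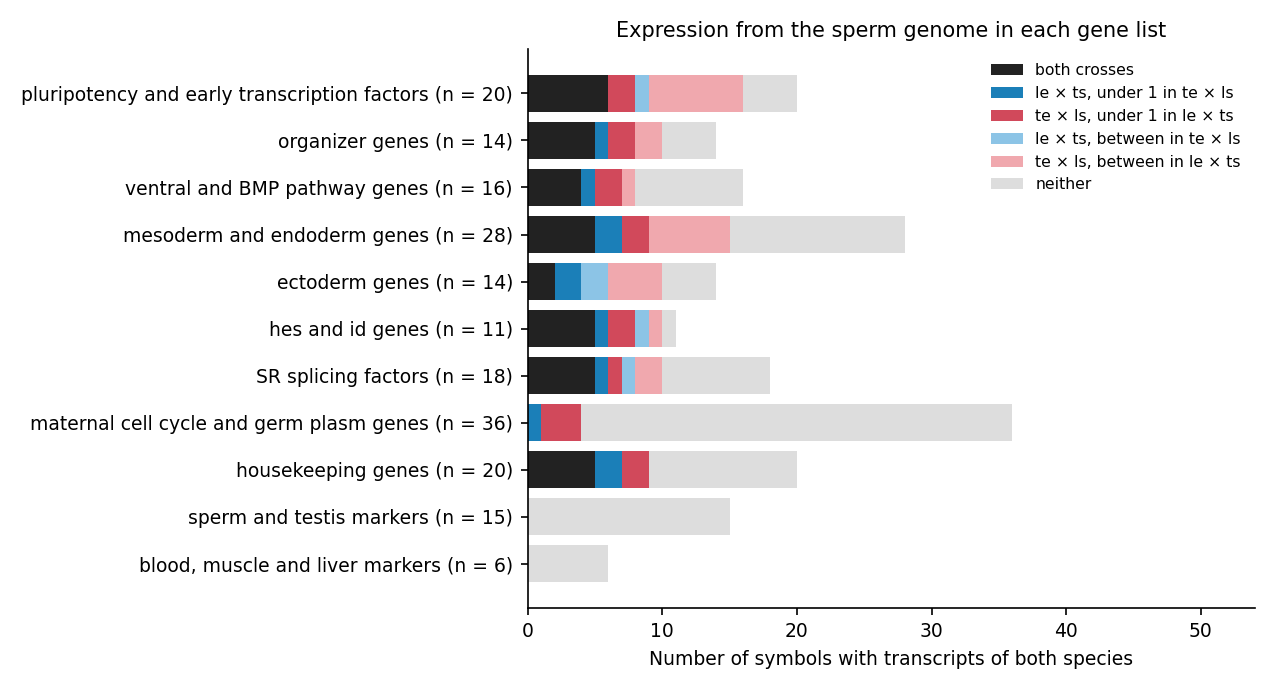
Number of symbols of each gene list by their expression from the sperm genome, for symbols with transcripts of both species; black is both crosses, dark blue and dark red are 1 cross with the other under 1 net TPM, pale colours lie between, and grey is neither. The hes and id genes have 1 of 11 symbols in grey, and the maternal cell cycle and germ plasm genes 32 of 36, against 9802 of all 10151 symbols.

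The 36 symbols expressed from the sperm genome in le × ts and under 1 net TPM in te × ls were led by *stim1*, a calcium sensor of the endoplasmic reticulum, and this value rested on 1 library. Its *X. tropicalis* transcript was at 827 and 4987 TPM in le × ts replicates 1 and 3, but also at 809 and 740 TPM in pure *X. laevis*, where no *X. tropicalis* genome is present. The net values were 52.4 and 4213 TPM, and the difference between crosses did not pass (1.40 ± 1.04, adjusted p = 0.507, limma). Summed over the 36 symbols, the net value was 395 and 4354 TPM with *stim1* and 342 and 141 TPM without it.

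The *X. tropicalis* transcripts of the next symbols were under 0.5 TPM in *X. laevis* embryos, except for *cldn7* at 0.802 and 1.42 TPM. The zinc finger gene *znf470* was at 107 and 16.6 TPM in le × ts and at 0.135 and 0.126 TPM in te × ls, a difference of 5.0 ± 1.05 (adjusted p = 0.0168, limma). The homeobox gene *mix1*, a target of Nodal signalling in the endoderm, was at 16.6 and 4.81 TPM against 0.116 and 0.136 TPM (3.17 ± 0.67, adjusted p = 0.0173, limma). The tight junction gene *cldn7* was at 11.9 and 10.6 TPM against 0.0435 and -0.134 TPM (2.68 ± 0.46, adjusted p = 0.00967, limma), and *znf630* was at 11.4 and 3.68 TPM against 0.045 and 0 TPM (2.90 ± 0.60, adjusted p = 0.0158, limma). In each of these the libraries of the crosses did not overlap, which follows from the rule that chose the symbols. They entered the test through le × ts, where they are high, so their p-values add nothing to the choice. Of the 36 symbols, 5 were listed at 0 in both te × ls libraries and 31 were above 0 in at least 1. Symbols starting with znf fell in several classes. Of 117 with transcripts of both species, 2 passed in both crosses, 3 in le × ts alone and 3 in te × ls alone, against 0.857%, 0.355% and 1.24% of all symbols. There was 1 that passed in te × ls with le × ts between, and 108 passed in neither, against 9802 of all 10151. The counts are too small to set against these shares. Summed over the 117, the net value was 357 and 68.2 TPM in le × ts and 39.3 and 45.3 TPM in te × ls.

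The 126 symbols expressed from the sperm genome in te × ls and under 1 net TPM in le × ts had lower and more even values. Their sum was 316 and 396 TPM in te × ls replicates 1 and 3, and their median mean net value was 2.17 TPM. The splicing factor subunit gene *sf3b5* was at 6.29 and 13.1 TPM in te × ls and was listed at 0 in both le × ts libraries, against 0.306 and 0 TPM in *X. laevis* embryos (-3.53 ± 0.49, adjusted p = 0.00588, limma). The protease gene *adamts1* was at 7.15 and 8.54 TPM in te × ls and at 0.315 and -0.018 TPM in le × ts (-2.94 ± 0.34, adjusted p = 0.00588, limma). The factor *klf4*, known for its part in pluripotency in mammals, was at 6.92 and 6.75 TPM in te × ls and at 0.414 and 0 TPM in le × ts (-2.72 ± 0.34, adjusted p = 0.00588, limma).

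The abundant growth-related gene *tpt1*, the chromatin-associated *ptma*, the small GTPase *rap2b* and *id2* and *plin2* completed the 8 highest, with mean net values between 6.26 and 8.83 TPM in te × ls and under 1 TPM in each le × ts library. The lowest adjusted p-values in favour of te × ls were those of *sertad1*, *adamts1*, *fam84a*, *hsp70* and *btbd6*, with log2 differences between -2.94 and -1.25 and an adjusted p of 0.00588 each by limma. These symbols, like *sf3b5* and *klf4*, entered the test through te × ls, where they are high and by which they were chosen. Their p-values add nothing to the choice. The heat shock gene *hsp70* was at 1.31 and 1.45 TPM in te × ls and the transcriptional coregulator gene *sertad1* at 1.85 and 1.89 TPM, and both were listed at 0 in both le × ts libraries. Of the 126 symbols, 20 were listed at 0 in both le × ts libraries, 106 were above 0 in at least 1, and 31 had a net value of 0.5 TPM or more in le × ts replicate 1.

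**Figure D4:**
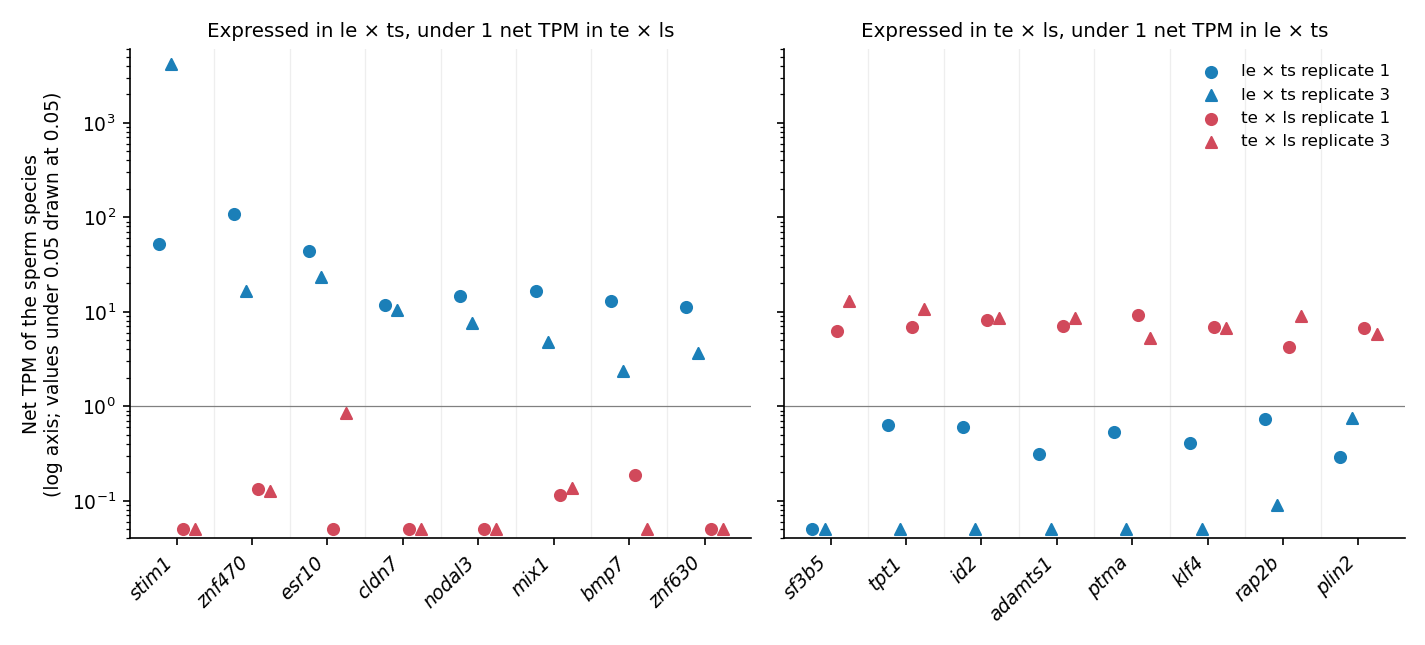
Net TPM of the sperm species in each hybrid library (logarithmic axis, values under 0.05 drawn at 0.05) for the 8 most abundant symbols that passed in le × ts alone (left) and in te × ls alone (right); circles are replicate 1 and triangles replicate 3, blue le × ts and red te × ls, and the line marks 1 TPM. The le × ts libraries of *stim1* are 52.4 and 4213 TPM, and the te × ls symbols lie between 4.24 and 13.1 TPM in te × ls.

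Some transcription factor genes among the 126 were singled out after their values were seen, and they were not counted against such genes in the other classes. These were the 21 symbols *bhlhe22*, *emx2*, *evx1*, *foxa1*, *foxb1*, *foxc1*, *hand2*, *hhex*, *irx3*, *mafb*, *neurog2*, *nkx6-1*, *olig3*, *otx1*, *pou3f2*, *pou3f3*, *sox1*, *sox8*, *sox9*, *sp8* and *tbx2*. Their mean net values in te × ls ran from 1.19 to 6.03 TPM with a median of 1.92 TPM. The highest net value in any le × ts library was 0.791 TPM, and 19 of the 21 were listed at 0 in le × ts replicate 3, the library with fewer reads. In pure embryos most of these genes were themselves low, with a median of 1.62 TPM of *X. laevis* transcript in *X. laevis* and 4.09 TPM of *X. tropicalis* transcript in *X. tropicalis*.

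For a few symbols the output of the sperm genome in te × ls exceeded the level in pure *X. laevis* embryos. Of the 302 symbols expressed in te × ls, 16 had *X. laevis* values in both te × ls libraries above both *X. laevis* libraries. The share of all 10151 symbols was 0.325%, but nothing is read from the comparison, since the 302 were chosen for high values in the same libraries. The homeobox gene *irx1* was at 16.2 and 19.2 TPM in te × ls and at 15.2 and 4.98 TPM in *X. laevis*, and the neural factor *sox1* was at 3.14 and 4.32 net TPM in te × ls and at 1.48 and 0.326 TPM in *X. laevis*. The forkhead gene *foxa1* was at 2.62 and 4.62 net TPM against 1.63 and 1.6 TPM. Of the 134 symbols expressed in le × ts, 3 lay above *X. tropicalis* embryos (*esr-5*, *hes9* and *tshb*), and of all symbols 0.0788% did, with the same limit. The transcript of *esr-5* was at 34.0 and 30.6 TPM in le × ts and at 8.08 and 11.7 TPM in *X. tropicalis* embryos. No symbol of the 87 had both hybrid libraries above both pure libraries of its sperm species, in either cross. These comparisons with the sperm species set the same hours after fertilization side by side, and the pure embryos hold maternal transcripts of that species.

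As a share of the level in pure embryos of the sperm species, the medians of the crosses lay close for the 87 shared symbols. The median was 4.1% in le × ts (range 0.0951 to 91.9%) and 4.73% in te × ls (range 0.125 to 132%), and 44 of the 87 had the higher share in te × ls. Taken this way, *not* was at 28.1% and 25.4% in le × ts and te × ls, while *sox3* was at 2.13% and 5.12% and *pou5f3* at 21.1% and 2.57%. The pure levels were higher for the 87 symbols, with medians of 171 TPM in *X. tropicalis* and 148 TPM in *X. laevis*, than for the 126 symbols of te × ls alone, with 50.2 and 62.9 TPM. Of those 126, 122 had the higher share in te × ls, and of the 36 symbols of le × ts alone 31 had the higher share in le × ts, which follows in large part from how the symbols were chosen and is a description. The factor *klf4*, at 6.86% and 11.6%, was closer between crosses on this scale than in net TPM. Its le × ts share is uncertain, since it rests on net values of 0.414 and 0 TPM in replicates 1 and 3. *X. tropicalis* embryos held 4.195 and 1.84 TPM of this transcript.

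Across all 714 symbols tested for a difference between crosses, 17 (2.38%) were higher in le × ts and 112 (15.7%) were higher in te × ls at an adjusted p under 0.05 and a log2 difference above 1, by limma with Benjamini-Hochberg adjustment. At an unadjusted p under 0.05, 196 differed. Of the calls in favour of le × ts, 14 fell on the 36 symbols of le × ts alone, 2 on symbols between in te × ls and 1, *hes7*, on the 87. Of the calls in favour of te × ls, 93 fell on the 126 symbols of te × ls alone, 9 on symbols between in le × ts, 7 on the 87 and 3 on symbols that passed in neither cross. The 7 were *sat1*, *hmgb3*, *prmt1*, *pou5f3*, *h2afz*, *spry1* and *myc*. A symbol could enter the test through the cross where it is high, so the counts within each class follow in part from how the classes were made and are a description.

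With no filter on low values 0 differences were called, and with a filter at 5 TPM there were 28. The balance of the calls moved with the scaling. The median difference over the 714 symbols was -0.31, and after quantile normalization it was -0.13, with 57 symbols higher in le × ts and 57 higher in te × ls. With the differences centred on the 87 shared symbols, 25 were higher in le × ts and 68 higher in te × ls. Calls also needed both te × ls libraries, since 0 were left without te × ls replicate 1 and 1 without replicate 3, with 580 and 574 symbols tested. Without *X. laevis* replicate 1 or 3 there were 67 and 41 calls in all, without *X. tropicalis* replicate 1 or 3 there were 33 and 75, and without le × ts replicate 1 there were 211. Without le × ts replicate 3 there were 28 calls in favour of le × ts and 110 in favour of te × ls.

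Each cross was also tested against the pure embryos of its egg species with limma, over the symbols of both species together. In te × ls 71 of the 460 *X. laevis* symbols tested were called higher (15.4%, or 0.676% of all symbols tested), of which 64 were shared symbols and all 64 were among the 302. The lowest adjusted p was 0.0432, reached by *not* (5.42 ± 0.40), *ventx2* (5.99 ± 0.29) and *sox3* (5.06 ± 0.35) among others. Without either te × ls library, with no filter, with a filter at 5 TPM or after quantile normalization 0 were called. In le × ts 0 of 434 *X. tropicalis* symbols were called by limma (0%), with a lowest adjusted p of 0.135. At an unadjusted p under 0.05 and a log2 difference above 1 there were 124 in le × ts (28.6%) and 323 in te × ls (70.2%), which held 107 of the 134 and 291 of the 302 expressed symbols. The rule and the test read the same libraries and values. These overlaps, and that of the 64 with the 302, were therefore largely fixed in advance and are a description. With the replicate number as a block, 105 were called in le × ts. With the sperm-species values of all 4 groups in 1 fit, 105 and 289 symbols were called.

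The copies in the egg species were not used to choose any symbol. For the 87 shared symbols, the *X. laevis* copy in le × ts had a median log2 difference from *X. laevis* embryos of -0.23, against 0.01 over all 10271 *X. laevis* symbols tested, and 16 of the 87 lay below -1, against 0.633% of all. The *X. tropicalis* copy in te × ls had a median difference from *X. tropicalis* embryos of -0.20, against -0.01 over all 10050, with 23 of the 87 below -1, against 1.06% of all. None lay above 1 in either cross. Without a block no single egg-species copy was called by limma, and the lowest adjusted p-values were 0.948 in le × ts and 0.0923 in te × ls. At an unadjusted p under 0.05 and below -1 there were 15 symbols in le × ts (0.146%) and 69 in te × ls (0.687%), of which 6 and 12 were among the 87. With the replicate number as a block, 26 egg-species symbols were called in le × ts and 87 in te × ls. What the replicate numbers mark is not given, so the absence of calls depends on the model.

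In le × ts the *X. laevis* copy of *hes7* was at 66.9 and 42.3 TPM, against 150 and 145 TPM in *X. laevis* embryos, a difference of -1.46 ± 0.30 without overlap (unadjusted p = 0.00411, adjusted p = 0.948, limma). The *X. laevis* copy of *cxcr4* was at 38.5 and 17.7 TPM against 89.6 and 65.5 TPM (-1.51 ± 0.44), again without overlap. In te × ls the *X. tropicalis* copy of *sia2* had a difference of -1.56 ± 0.23 (unadjusted p = 0.00193, adjusted p = 0.126, limma), and that of *not* was at 41.7 and 113 TPM against 135 and 318 TPM (-1.58 ± 0.64). Copies of *sox3*, *srsf5*, *srsf7* and *tdgf1*, which the egg species held at a high level, had differences between -0.31 and 0.27 in both crosses.

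The counts of 16 and 23 changed when single libraries were left out. For egg-species transcripts, deviations of same-numbered hybrid and pure libraries had a correlation of 0.782 in le × ts and 0.840 in te × ls. Leaving out 1 library breaks this match, and the part of that in the changes was not tested. In le × ts 5 of the 87 lay below -1 without le × ts replicate 3 and 8 without *X. laevis* replicate 1, and the median stayed between -0.24 and -0.14 over the 4 left-out libraries. In te × ls 8 lay below -1 without te × ls replicate 1 and 7 without *X. tropicalis* replicate 3, and the median stayed between -0.34 and -0.15. The symbols of te × ls alone had median differences of 0.00 in le × ts and -0.04 in te × ls, with 3 of 113 and 9 of 121 tested below -1. For the symbols of le × ts alone 5 of 34 lay below -1 in le × ts and 9 of 35 in te × ls. Symbols that passed in te × ls and lay between in le × ts had medians of -0.04 in le × ts and -0.11 in te × ls. Of these, 15 of 89 and 20 of 88 lay below -1, so copies below -1 were not particular to the 87.

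**Figure D5:**
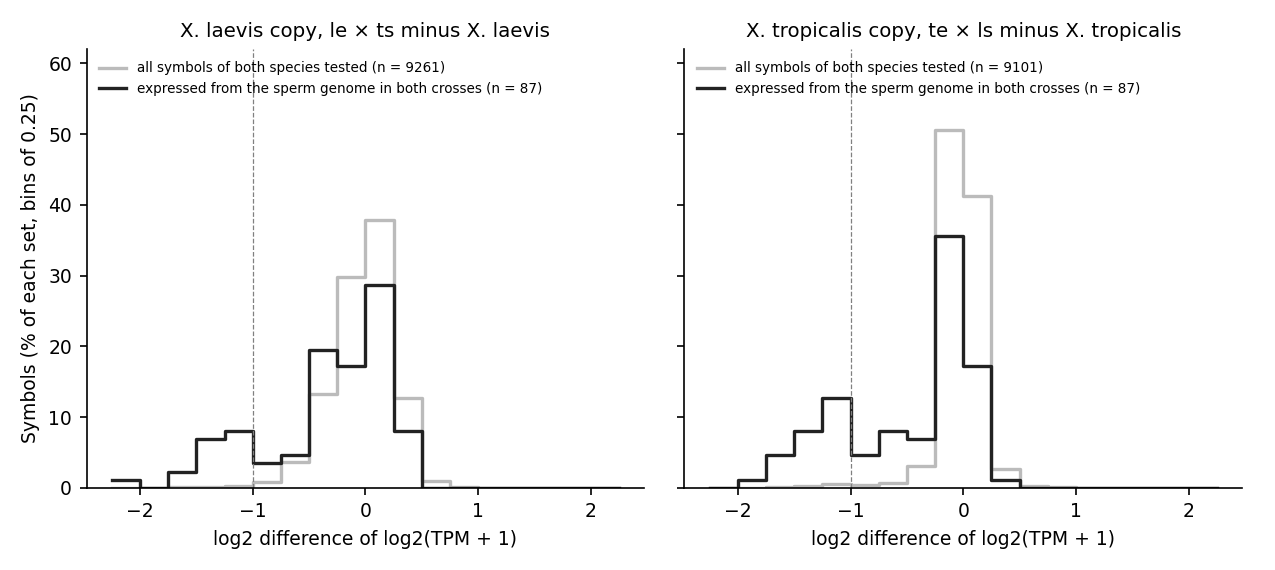
Distribution of the log2 difference of the egg-species copy from pure embryos of the egg species, in percent of symbols per bin of 0.25, for X. laevis copies in le × ts (left) and X. tropicalis copies in te × ls (right); grey is all symbols of both species that were tested and black is the 87 symbols expressed from the sperm genome in both crosses. Below the dashed line at -1 lie 16 of 87 on the left and 23 of 87 on the right, against 0.594% and 1.03% of the grey symbols.

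The sperm genome gave a small share of all RNA in both crosses. *X. tropicalis* transcripts took 0.678 and 1.02% of TPM in le × ts, against 0.293 and 0.332% in *X. laevis* embryos. No *X. tropicalis* genome is present in the latter, and the source of such reads was not tested. *X. laevis* transcripts took 0.355 and 0.429% in te × ls, against 0.124 and 0.230% in *X. tropicalis* embryos. The groups did not overlap, but 2 libraries against 2 allow no exact permutation p below 0.33, the value reached in both. The 10 most abundant transcripts of the sperm species, *stim1* among them, were then left out. The share was 0.528 and 0.357% in le × ts, against 0.172 and 0.215% in *X. laevis* embryos. It was 0.298 and 0.357% in te × ls, against 0.0705 and 0.155% in *X. tropicalis* embryos, so that the crosses did not separate in replicate 3. Net of the pure embryos, the mean share was 0.25% in le × ts and 0.214% in te × ls.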

How the data were processed

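The authors mapped the reads against the transcripts of both species at once, kept reads with no mismatch and a single target, and deposited TPM per transcript and library, estimated with RSEM. The submitters' processing notes also name BWA 0.7.10. A read identical in both species, or in L and S homeologs, is lost under these settings. The 8 libraries, 2 per group, were grouped by their labels, and each library summed to between 999146 and 999534 TPM. Depth per library is unknown, the relative number of reads rests on steps between 0.03 and 0.3 TPM, and no counting interval is given.

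TPM were summed by symbol within a species. Transcripts with no symbol, 1226 of *X. laevis* and 1173 of *X. tropicalis*, were left out of sums and tests. Detection used the net value described above. Tests used R 4.3.3 with limma 3.58.1 (lmFit, eBayes with a mean trend, no block) on log2(TPM + 1), for symbols that reached 1 TPM in 2 or more of the values fitted, with Benjamini-Hochberg adjustment over all of them, a threshold of 0.05 and a fold change above 2. Counts of reads are needed for edgeR, the tool the authors applied, and it was not run on TPM. The fits were tested on simulated data. Alternatives were other detection levels, subtractions, pseudocounts, filters and scalings, the replicate number as a block, fits over all groups, and each library left out.

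Named symbols were the 12 most abundant in both crosses, the 8 most abundant in each cross alone among symbols at 1 TPM or more in pure embryos of both species, members of 11 gene lists that passed, and up to 5 of lowest adjusted p in each direction. The members, lists and tests were chosen with earlier results of these data known. A withheld symbol is not reported here.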

Additional observations from a re-analysis of the deposited data

Results flagged for a closer look

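The change over pure embryos differed between the crosses, by the test of the difference itself in limma with Benjamini-Hochberg adjustment, for 10 symbols singled out by their adjusted p. On the log2 scale, le × ts minus te × ls, the values were 3.95 for *esr-5*, 3.53 for *nodal3*, 4.51 for *klf17*, 4.38 for *esr10* and 3.92 for *hes7*, each higher in both le × ts libraries than in both te × ls libraries. They were -1.52 for *sertad1*, -2.94 for *adamts1*, -1.95 for *fam84a*, -1.25 for *hsp70* and -2.17 for *btbd6*, each higher in both te × ls libraries. Of these, *hes7* and *klf17* reached 1 TPM in both libraries of each cross. The others entered the test through the cross where they are high, so their p-values add nothing to that choice. Both *sertad1* and *hsp70* were at 0 in both le × ts libraries, and with no filter on low values 0 differences were called. In all, 17 symbols were higher in le × ts and 112 in te × ls by this test.

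Signal from the sperm genome also appeared in transcripts outside the comparison of shared symbols. In le × ts 18 of 1528 symbols with *X. tropicalis* transcripts alone passed the rule, against 1.32% of the shared symbols, and 0 did with the groups exchanged. They included the POU factor *oct25* at 38.4 and 22.5 net TPM, the homeobox gene *bix1* at 34.0 and 5.68 net TPM and the zinc finger genes *znf665* and *znf157* at 87.4 and 15.6 and at 62.6 and 16.6 net TPM. In te × ls 20 of 1634 symbols with *X. laevis* transcripts alone passed, against 2.98% of the shared symbols and 0 exchanged. Among them were *bix3* at 14.6 and 27.9 net TPM and *hes5* at 7.85 and 13.7 net TPM. In neither cross was the share of these symbols above that of the shared symbols. Of the transcripts with no symbol, 21 of 1173 passed in le × ts, against 0 exchanged, and 20 of 1226 in te × ls, against 1 exchanged.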

How the results depend on the processing

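The symbols that passed in le × ts, in te × ls, in both, in le × ts alone and in te × ls alone numbered 215, 512, 142, 56 and 220 at 0.5 net TPM and 29, 64, 13, 15 and 25 at 5 net TPM. Without subtraction, with the higher pure library subtracted, or with the highest transcript of a symbol, each count stayed within 1.5 times its main value. With 1 library left out the counts ran from 129 to 329, 301 to 421, 82 to 169, 35 to 124 and 120 to 216.

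Of sperm-species symbols in le × ts, 0 were called in the main test, 19 with all 4 groups in 1 fit, 105 with sperm-species values of the 4 groups in 1 fit, and 0 to 19 with 1 library left out. In te × ls 71 were called, and 148 with a pseudocount of 0.1, 0 with no filter, 0 with a filter at 5 TPM, 0 after quantile normalization, 173 with no mean trend, 200 and 289 in the 2 wider fits, and 0 to 84 with 1 library left out. Of egg-species symbols in te × ls, 1 was called with no mean trend and 5 with all 4 groups in 1 fit, against 0. Of the 129 differences between crosses (17 higher in le × ts, 112 in te × ls), 0 were left with no filter, 28 (8 and 20) with a filter at 5 TPM, and 114 (57 and 57) after quantile normalization. Centred on the shared symbols there were 93 (25 and 68), and with 1 library left out 0 to 211 (0 to 28 and 0 to 194). The cause of these changes was not tested, except that fewer or more symbols were tested under the filters. The mean share of sperm-species TPM, with the pure embryos not subtracted, was 0.443% in le × ts and 0.327% in te × ls without the 10 most abundant transcripts. It was 0.324% in te × ls over shared symbols.

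Labels give the replicate numbers 1 and 3 in every group but not what they mark. Deviations of same-numbered libraries had a correlation of 0.724 between le × ts and *X. laevis* and of 0.760 between te × ls and *X. tropicalis* over 28656 transcripts, and of -0.0471 between the crosses. For egg-species transcripts alone the correlation with the pure embryos was 0.782 in le × ts and 0.840 in te × ls. For sperm-species transcripts alone it was 0.0588 and 0.0992. The pure embryos of the egg species lack the sperm genome, so these values cannot show whether the sperm-genome values are paired. With the replicate number as a block, 105 sperm-species symbols were called in le × ts and 255 in te × ls, 26 and 87 egg-species symbols, and 120 differences (17 and 103).

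Of 520 alternative values for 35 named differences, 409 kept direction and side of the threshold, 89 lost and 8 gained the call, and 14 turned, none of a called difference. With 1 library left out, the difference ran from -0.39 to 0.25 for *cxcr4*, -1.80 to 0.77 for *gdf3*, -2.68 to 0.59 for *pnrc2*, -1.08 to 0.24 for *srsf7*, -0.12 to 0.81 for *not* and -0.53 to 0.45 for *tdgf1*. It was 0.25 for *cxcr4* and 0.28 for *tdgf1* when centred, and -0.31 for *not* after quantile normalization. Of 140 alternatives for named net values, 20 moved by at least the spread between replicates, and 0 net values of 1 TPM or more changed sign. TPM carry no counts, so values near 1 TPM, in le × ts replicate 3 above all, have a precision that is unknown.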
